A study of Mus musculus with 9 samples.

Results

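The genes described are the axon guidance ligands and receptors, chosen by symbol from the gene names that the deposited table lists beside each insertion position. The rule took symbols starting with Sema and a digit, Plxna, Plxnb, Plxnc, Plxnd, Robo, Slit and a digit, Unc5, Epha, Ephb, Efna or Efnb, together with Dcc, Ntn1, Ntn4, Nrp1 and Nrp2. It found 69 of 22353 symbols (0.309%), made up of 2 netrins, 7 genes of the Dcc and Unc5 group, 3 Slit genes, 4 Robo genes, 20 semaphorins, 9 plexins, 2 neuropilins, 8 ephrins and 14 Eph receptors. Unc50, which encodes a Golgi protein, and Unc5cl, an Unc5-like gene that lacks the receptor's netrin-binding part, entered through the prefix Unc5.

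The data are transposon insertions in SHH medulloblastomas of Lazy Piggy mice. A Lazy Piggy element joins parts of the Sleeping Beauty (SB) and piggyBac (PB) transposons, and the study looked for genes that maintain these tumours by comparing mice with and without tamoxifen. All animals of both groups carry the genotype given as lazy_piggy. The authors' sample sheet puts 72 animals in the tamoxifen group (53 with chromosome 10 as the listed donor of the transposon, 19 with chromosome 7) and 47 in the untreated group (37 and 10). For 71 tamoxifen animals it lists a single number of tamoxifen days, from 4 to 249 with a median of 49, and for 1 animal it lists 2 numbers; the untreated animals are listed with 0 days. The strain, the age, the promoters that drive the transposases and the alleles that start the tumours were left unnamed by the labels. The measured molecule was tumour DNA, so no expression marker can check the tissue.

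Axon guidance cues steer growing axons and migrating neurons. Netrins attract through Dcc and repel through Unc5 receptors, Slit proteins repel through Robo receptors, semaphorins signal through plexins with neuropilins as co-receptors, and membrane-bound ephrins signal with Eph receptor kinases at cell contacts. In the developing cerebellum these families guide the migration and sorting of granule neuron precursors, the cells from which SHH medulloblastomas arise. Transposon screens read such genes through recurrent insertions, and long genes collect more insertions than short ones when the element lands anywhere.

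Each animal had 3 kinds of library. IR libraries were amplified from the SB ends, JX libraries from the boundary of the SB and PB parts, and PB libraries from the PB ends. The median IR count per animal was 3115243 with tamoxifen and 3143569 without. For JX these medians were 441808.5 and 287429, and for PB they were 204963.5 and 216967. Single animals ranged from 295999 to 6337624 counts in IR, from 116836 to 2025775 in JX and from 1714 to 2853048 in PB. JX libraries of the tamoxifen group were thus deeper at the median, and the part of depth in the JX counts below was not tested. To be called in an animal, a site needed 10 or more counts and no less than 1% of what the strongest site of that animal had in the same kind of library. Where several animals passed at a position, only the animal with the highest share there was counted. Coordinates are positions in mm9.

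Called sites in or next to axon guidance genes were few, and most of them came from JX libraries. In IR, 7 of 69 genes (10.1%) had a called site in at least 1 animal, against 6.35% of all symbols. In JX, 29 genes (42.0%) had one, against 16.4% of all symbols. In PB, 11 genes (15.9%) had one, against 7.83%. Over the 3 kinds together 30 genes (43.5%) were hit, against 20.8% of all symbols. By group, the genes hit in IR were 6 with tamoxifen (8.70%, background 4.41%) and 3 without (4.35%, background 2.29%). In JX they were 23 (33.3%, background 11.6%) and 10 (14.5%, background 6.85%), and in PB 9 (13.0%, background 5.77%) and 3 (4.35%, background 2.64%). The tamoxifen group holds more animals, so these counts per group are no comparison of the groups.

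These genes were listed at more positions than most. The table gave a median of 97 distinct positions per axon guidance gene (range 2 to 553, Dcc the highest) and a median of 28 over all symbols, positions below the call included. Of the 34 axon guidance genes listed at 100 or more positions, 7 were hit in IR (20.6%), against 27.6% of all 3026 symbols with that many positions. In PB it was 10 of 34 (29.4%), against 32.0%. In JX it was 27 of 34 (79.4%), against 55.0%. Among genes listed this often, the share with a call was near the background in PB, somewhat below it in IR and above it in JX. These differences were not tested. The JX calls include positions that many animals share, described below, and were not counted without them for these 34 genes. Across the 69 genes the log10 number of listed positions and the number of animals hit, summed over the 3 kinds of library, had a Pearson correlation of 0.548 and a Spearman correlation of 0.659. This is a description over genes, which share animals and libraries, and both measures come from the same counts.

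**Figure D1:**
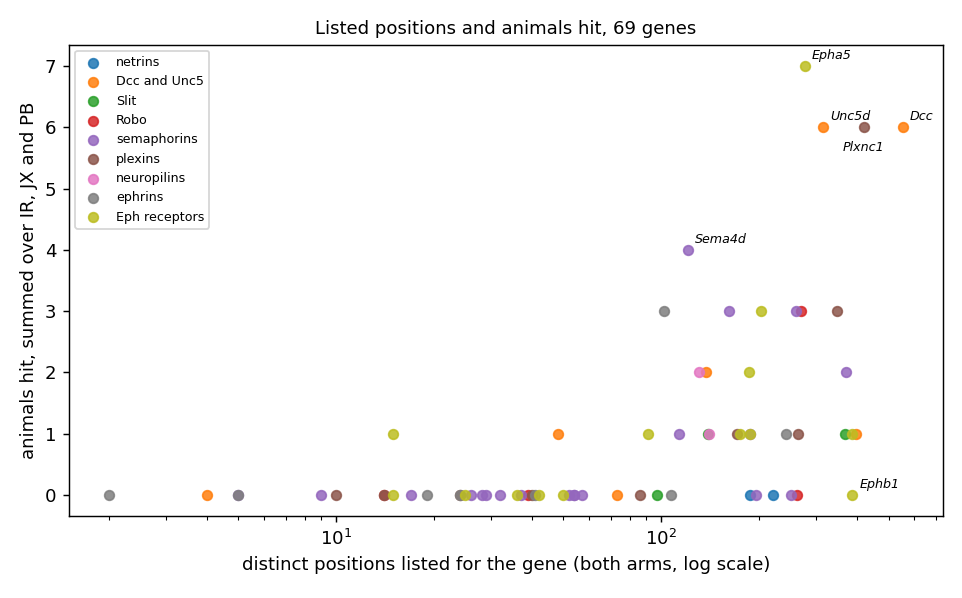
Distinct positions listed for each of the 69 genes (log scale, both groups of animals) against the animals with a called site, summed over IR, JX and PB, so that an animal called in several kinds counts in each. Each point is a gene, coloured by family; Dcc stands farthest right at 553 positions, and Ephb1, at 386 positions, has no called site.

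The 39 genes without a called site included both netrins, Ntn1 (187 listed positions) and Ntn4 (221), the receptor genes Robo1 (261) and Ephb1 (386), and Sema5a (250), Sema6d (195), Slit1 (97) and Efnb2 (107). They also included Unc50, listed at 4 positions. At these calls a missing site says only that no animal carried one at 1% of its highest site or more.

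The comparison of groups asked whether a gene was hit in a different share of animals with tamoxifen than without. Genes hit in at least 3 animals in a kind of library were set against each other between the groups by Fisher's exact test (two-sided), with Benjamini-Hochberg adjustment over all genes of that kind. The number of genes past an adjusted p of 0.05 was 0 of 40 tested in IR (0%), 0 of 244 for JX (0%) and 0 of 55 for PB (0%). Fisher's exact test gave an unadjusted p below 0.05 for 0 IR genes, 2 JX genes (0.820%) and 1 PB gene (1.82%), none of them an axon guidance gene. The axon guidance genes tested were Plxnc1 in IR and Dcc, Unc5d, Epha5, Sema3a and Sema4d in JX. That is 1 of 69 genes in IR (1.45%), against 0.179% of all symbols hit in at least 3 animals, 5 in JX (7.25%), against 1.09%, and 0 in PB, against 0.246%. With these group sizes a gene hit in 3 animals, all with tamoxifen, reaches p = 0.277 in Fisher's exact test, and one hit in 4 reaches 0.152. The smallest such number with a Fisher's exact test p below 0.05 is 7 animals (p = 0.0412). After crediting, no axon guidance gene had more than 4 tamoxifen animals in a kind of library. In the other direction the groups' sizes allow lower values: 3 animals, all untreated, reach an exact p of 0.0592, and 4 reach 0.0225.

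**Figure D2:**
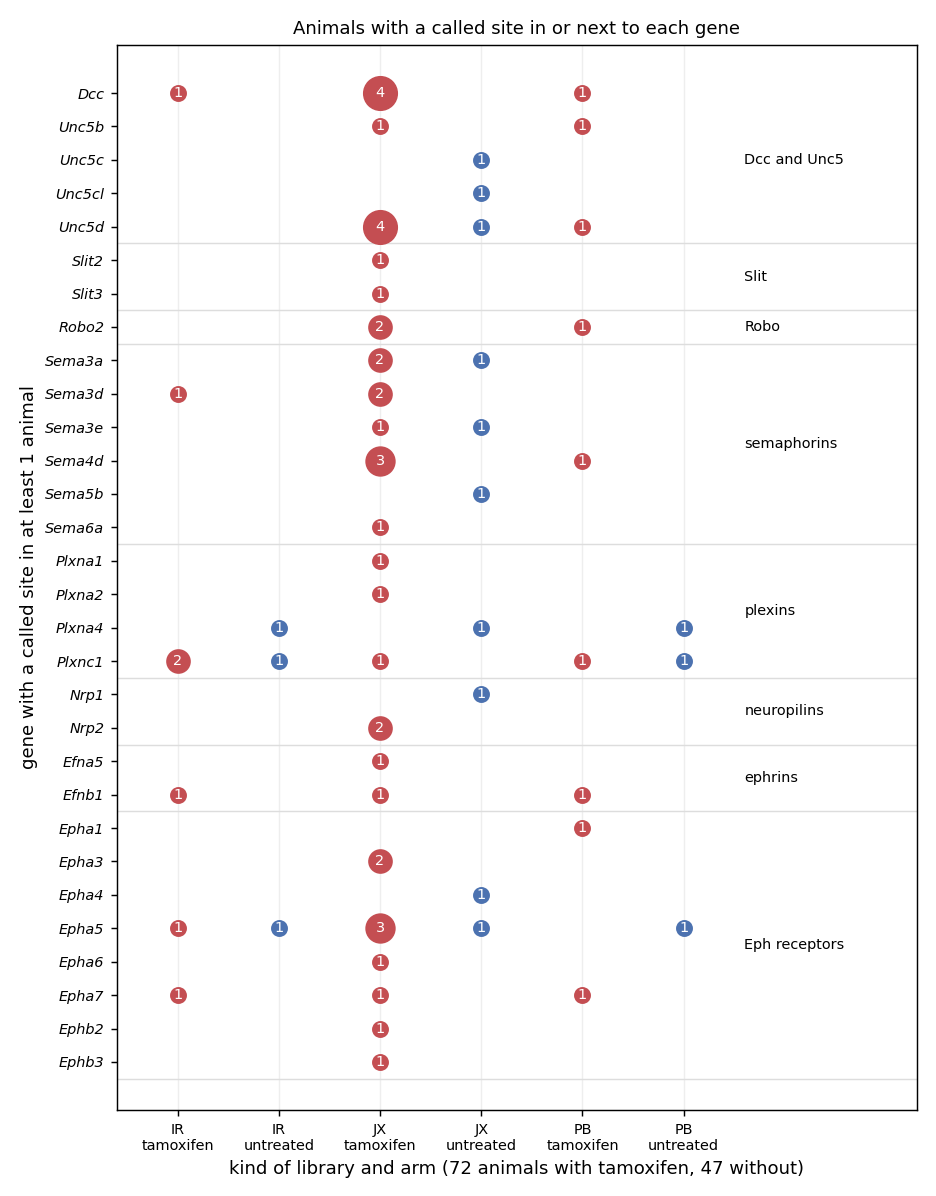
Animals with a called site in or next to each of the 30 axon guidance genes that had one, by kind of library and group (72 animals with tamoxifen in red, 47 without in blue). The number in each circle is the number of animals and its area grows with it; the highest are 4 animals for Dcc and for Unc5d in JX with tamoxifen.

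Among the netrin receptors, Dcc, which encodes the receptor for attraction by netrin, was hit in 6 animals with tamoxifen over all kinds of library and in 0 without. In JX these were 4 of 72 animals (5.56%) against 0 of 47, which did not pass (Fisher's exact test p = 0.152, adjusted p = 1). The 4 JX sites lay in introns of Dcc on chromosome 18: position 71469653 in intron 25 (216 counts, 0.0869% of the animal's JX counts), 71596974 in intron 14 (297 counts, 0.123%), 72418895 in intron 1 (198 counts, 0.169%) and 72482851 in intron 1 (78 counts, 0.030%). Only the site at 72418895 belonged mainly to its own animal, with 91.2% of the JX counts that all animals had there. At the other 3 positions the highest animal held 2.36%, 3.07% and 8.07% of the counts of all animals. Those positions are called spread over animals below, meaning that 3 or more animals listed them and that the highest of these had 50% of the counts or less. Without the rule that credits a position to 1 animal, Dcc was hit in 22 animals with tamoxifen and 13 without (Fisher's exact test p = 0.838, adjusted p = 1). With spread positions left out it was hit in 1 and 0.

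In IR, Dcc had 2 called sites, at 71617241 in intron 12 (289 counts, 0.0976%) and 72399752 in intron 1 (1031 counts, 0.348%). Both came from the tamoxifen animal with the most called IR sites, 334 in all, and the animal had no JX or PB count within 1000 bp of either. The PB site of Dcc at 72160510 in intron 1 (168 counts, 0.250%) came from another tamoxifen animal, which had 336 IR counts within 1000 bp and no JX count there. The calls of Dcc in the 3 kinds of library thus fell at separate places in separate animals.

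Unc5d, which encodes a receptor for repulsion by netrins, was hit in JX in 4 animals with tamoxifen (5.56%) and 1 without (2.13%), with Fisher's exact test p = 0.647 and adjusted p = 1. Without crediting, Unc5d was hit in JX in 4 animals with tamoxifen and 3 without. Of its 5 credited JX sites, 2 were spread over animals, the untreated one at 30169630 on chromosome 8 among them. The highest was a left-end site 633.6 kb downstream of the gene at 29696515, with 411 JX counts (0.113%). The same tamoxifen animal had 170 IR and 391 PB counts within 1000 bp of it, and no other animal listed a JX count there. Another tamoxifen animal had a site in intron 4 at 29879674 with 124 JX counts (0.0553%), 224 IR and 147 PB counts. The PB site of Unc5d, in intron 1 at 30136392, had 19 counts (0.181%).

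After crediting, the other members of the group were hit in fewer animals. Unc5b, a netrin receptor of vessels and neurons on chromosome 10, had a JX site 39.5 kb upstream and a PB site 38.1 kb upstream in the same tamoxifen animal, with 57 and 24 counts; chromosome 7 is the donor of this animal, and its JX position was spread. Unc5c, whose loss disturbs cerebellar granule cell migration in mice, had a spread JX position credited to 1 untreated animal, and Unc5cl likewise. Before crediting, the Unc5c position reached the call in 17 animals with tamoxifen and 9 without, and the Unc5cl position in 1 of each. Unc5a and Unc50 had no called site.

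Slit and Robo genes carried only low shares. Slit2, which encodes a repellent ligand, had a JX site 374 kb upstream with 171 counts (0.0688%) at a spread position. Before crediting, that position reached the call in 3 animals with tamoxifen and 3 without. Slit3 had a JX site in intron 4 at 35075737 on chromosome 11 with 77 counts (0.0315%). It was in a tamoxifen animal that had 866 IR counts within 1000 bp. Robo2, a Slit receptor, was hit in 2 tamoxifen animals. In one of them a JX site with 64 counts (0.0285%) and a PB site with 768 counts (0.0551%) lay 69 bp apart, 559 kb downstream of the gene, with 312 IR counts near them.

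Of 20 semaphorin genes 6 were hit. Sema4d, a membrane-bound semaphorin that binds plexin B1, was hit in JX in 3 animals with tamoxifen (4.17%) and 0 without (Fisher's exact test p = 0.277, adjusted p = 1). Its JX sites lay at 51805066 in intron 12 (571 counts, 0.169%), 51807932 in intron 9 (50 counts, 0.0207%, spread) and 51861523 in intron 1 (40 counts, 0.0208%) on chromosome 13. In PB, a further tamoxifen animal had 237 counts (0.204%) at 51859810 in intron 1, with 4659 IR and 397 JX counts within 1000 bp, below the call in both of those kinds. Sema4d thus had sites in 4 tamoxifen animals and 0 untreated ones over all kinds of library.

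Sema3a, a secreted repellent of axons, was hit in JX in 2 animals with tamoxifen (2.78%) and 1 without (2.13%), with Fisher's exact test p = 1. The highest of its 4 JX sites had 2296 counts (0.378%) in intron 4 at 13486820 on chromosome 5, all from the left end, with 166 IR counts near it. The untreated animal had 2 sites, 23.0 and 78.7 kb downstream of the gene, with 52 and 128 counts. After crediting, Sema3d, its secreted relative, was hit in 3 tamoxifen animals over all kinds of library and in 0 untreated ones. In IR it had 29147 counts (0.760%) in intron 10 at 12550860, the animal's 13th highest IR site, with 404 JX and 187 PB counts within 1000 bp. In JX it had 1392 counts (0.245%) at 12442626 in intron 1 of another animal, and 124 counts at a spread position in intron 1 of the third. Before crediting, that spread position reached the call in 5 animals with tamoxifen and 1 without. Sema3e was hit in 1 animal of each group, with 474 JX counts (0.202%) with tamoxifen and 112 (0.0409%) without. Sema5b and Sema6a had 1 JX site each, at 81 and 32 counts.

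The plexins held the site with the highest share of any axon guidance gene in each kind of library, and all 3 belong to a single locus. Plxna4, which encodes a plexin that transmits class 3 and class 6 semaphorin signals, had 139760 IR counts (4.45%) at 32183244 in intron 9 on chromosome 6 of an untreated animal, the 5th highest IR site of that animal. The same position had 2721 JX counts (0.984%), the 7th highest JX site, and 209 bp away at 32183035 lay 170 PB counts (1.69%), the 7th highest PB site. The right end held 137919 of the IR counts, 1854 of the JX counts and all 170 PB counts. Plxna4 was called in 1 untreated animal and in 0 animals with tamoxifen. Of the 119 animals, 9 others listed an IR count at this position, and the highest of these had 805.

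Plxnc1, the plexin that binds Sema7a, lies on chromosome 10 and was hit in IR in 2 animals with tamoxifen (2.78%) and 1 without (2.13%), with Fisher's exact test p = 1 and adjusted p = 1. Its IR sites had 3535 counts (0.118%) 95.6 kb upstream at 94502817, 9825 counts (0.177%) in intron 21 at 94282552, in the untreated animal, and 194 counts (0.0655%) in intron 1 at 94397294. All 3 animals have chromosome 10 as donor. The first of these was also called in JX (271 counts, 0.111%) and 19 bp away in PB (440 counts, 0.577%). The second was called in PB 31 bp away (875 counts, 0.266%) and had 119 JX counts. The third came from the animal with the most called IR sites, named above for Dcc, and had no JX or PB count within 1000 bp. Without that animal Plxnc1 was hit in 1 animal of each group.

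Plxna1 and Plxna2, receptors for class 3 semaphorins with neuropilins, had 1 JX site each in intron 3. Plxna1 had 6185 counts (0.730%) at 89302048 on chromosome 6 of a tamoxifen animal, all from the left end and the 9th highest JX site there, with 1048 IR counts and no PB count within 1000 bp. Plxna2 had 910 counts (0.170%) at 196486788 on chromosome 1, with 2330 IR and 1113 PB counts. The neuropilin co-receptors had JX sites only. Nrp2 had spread positions 24.2 and 67.0 kb downstream, credited to 2 tamoxifen animals with 86 and 82 counts. Before crediting, the position at 67.0 kb reached the call in 8 animals with tamoxifen and 3 without. Nrp1 was hit in 1 untreated animal with 43 counts in intron 6.

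Of 8 ephrin genes 2 were hit. Efnb1, which encodes a transmembrane ligand of EphB receptors, had a locus called in all 3 kinds of library in 1 tamoxifen animal, 17.2 kb downstream of the gene on chromosome X. It held 32933 IR counts (1.43%, the 10th highest IR site) and 386 JX counts (0.330%) at 96361518, and 1011 PB counts (0.367%) at 96361232. Efna5, a membrane-anchored ligand of EphA receptors, had 34 JX counts at a spread position 356 kb downstream.

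Of 14 Eph receptor genes 8 were hit. Epha5, a receptor kinase for ephrin-A ligands in neurons, was hit in 3 animals with tamoxifen and 2 without over all kinds of library. In JX it was 3 animals (4.17%) against 1 (2.13%), with Fisher's exact test p = 1 and adjusted p = 1. In a tamoxifen animal, position 84813562 in intron 2 on chromosome 5 had 35900 IR counts (0.894%) and 292 JX counts (0.104%), with 29 PB counts within 1000 bp. In an untreated animal, intron 3 had 3076 IR counts (0.206%) at 84724282 and 3607 PB counts (0.158%) at 84724369, with 55 JX counts below the call. A second untreated animal had 500 JX counts (0.183%) at 84839054 in intron 1, with 423 IR and 50 PB counts. The remaining JX sites, both with tamoxifen, had 76 counts at a spread position and 42 counts.

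Epha7, which encodes a receptor kinase for ephrin-A ligands, had a locus called in all 3 kinds in 1 tamoxifen animal, 52.0 kb downstream of the gene on chromosome 4. It held 22561 IR counts (0.604%) and 1184 JX counts (0.652%) at 28946637 and 73 PB counts (0.404%) at 28946892. Epha3 was hit in JX in 2 tamoxifen animals, both in intron 5, with 1765 counts (0.382%) and 62 counts (0.0262%). Ephb2, an EphB receptor kinase, had 920 JX counts (0.172%) in intron 3 in the tamoxifen animal that also carried the Plxna2 site. Epha1 had the only called site in an exon, 98 PB counts (0.574%) in exon 7 at 42314649 of chromosome 6, in the animal with the most called IR sites which had neither IR nor JX counts within 1000 bp there. After crediting, Epha4, Epha6 and Ephb3 had 1 JX site each, all at spread positions. Before crediting, the Epha4 position reached the call in 5 animals with tamoxifen and 5 without, and the Ephb3 position in 3 and 0.

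Taking sites of an animal within 1000 bp as 1 locus, the 72 called sites formed 60 loci. Of these, 4 were called in all 3 kinds of library (Plxna4, Efnb1, Epha7 and the upstream locus of Plxnc1) and 4 in 2 kinds (2 of Epha5, the intron 21 locus of Plxnc1, and Robo2). The other 52 were called in 1 kind only: JX alone gave 43, PB alone 5 and IR alone 4. The 8 loci seen in more than 1 kind lay in 6 genes, 5 in tamoxifen animals and 3 in untreated ones. In each of the 4 loci called in all 3 kinds the IR and JX sites were called at the same position (0 bp apart), and the PB site was called 19 to 286 bp away.

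**Figure D3:**
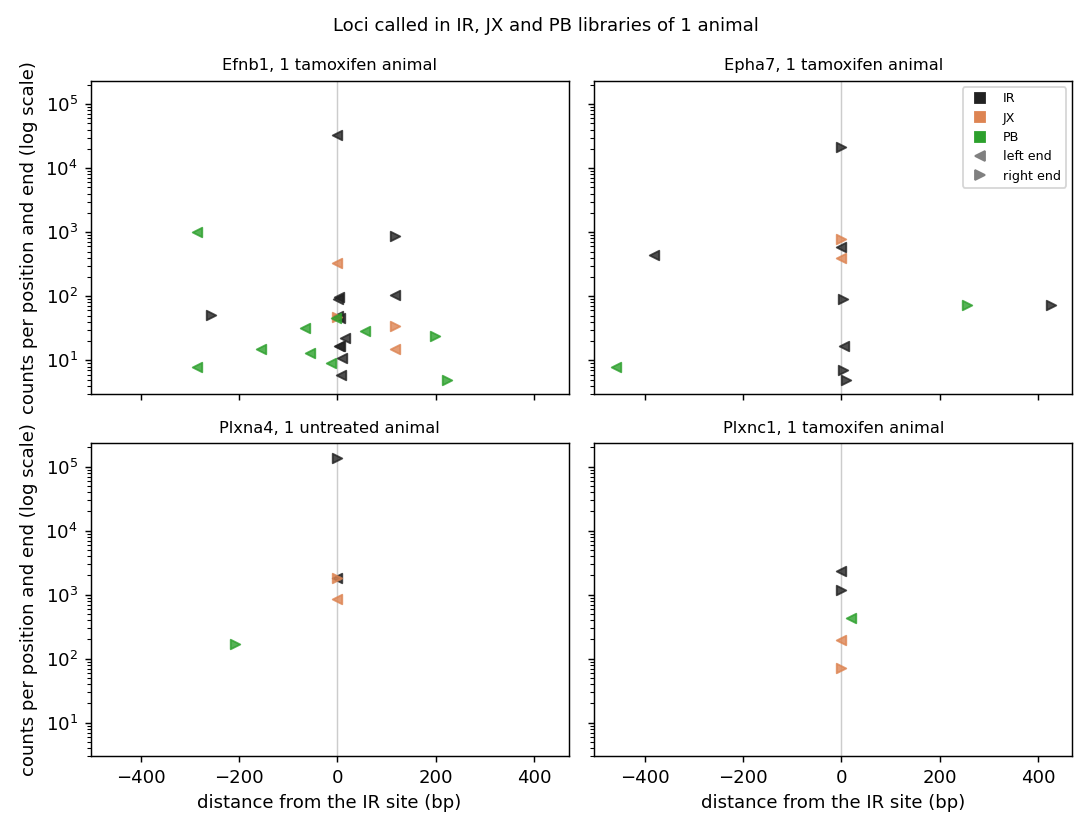
Counts per position and library end (log scale) against the distance in bp from the called IR site, in the animal that carries it, for the 4 loci called in IR, JX and PB. Black marks IR, orange JX and green PB, with left-pointing triangles for the left and right-pointing ones for the right end, and positions with under 5 counts are left out; the tallest IR point is at 0 bp in each panel, the highest JX point sits at 0 bp too, and the highest PB point lies between 19 and 286 bp away.

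Other animals also listed counts at these IR and JX positions. For the 8 loci seen in more than 1 kind, 51 listings came from other animals, and 47 of them were from animals that share a sequencing lane with the owner. Only 12 to 23 of the 118 other animals share a lane with a given owner. Taken as a percentage of the owner's count at the same position, the largest was 6.74%, in JX at Efnb1 (26 against 386 counts). The highest count of another animal was 805, in IR at Plxna4, where the owner had 139760.

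The median share at axon guidance genes was below that of all called sites in each kind of library. The median share was 0.348% over 11 IR sites, against 0.656% over all 2311 called IR sites. It was 0.0467% over 49 JX sites, against 0.0611% over 6778, and 0.258% over 12 PB sites, against 0.433% over 2910. The locus of Plxna4 gave the only site among the 5 highest of its animal, in IR (1 of 11, 9.09%, against 22.1% of all called IR sites). In JX and PB none of the sites was among the 5 highest of its animal, where 6.36% and 17.0% of all called sites were. Introns held 8 of 11 sites in IR (72.7%, against 58.4% of all called IR sites with a gene). In JX they held 32 of 49 (65.3%, against 54.3%) and in PB 6 of 12 (50%, against 58.95%). Sites upstream of a gene lay 38.1 to 374 kb away, and sites downstream of one 5.64 to 634 kb away.

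**Figure D4:**
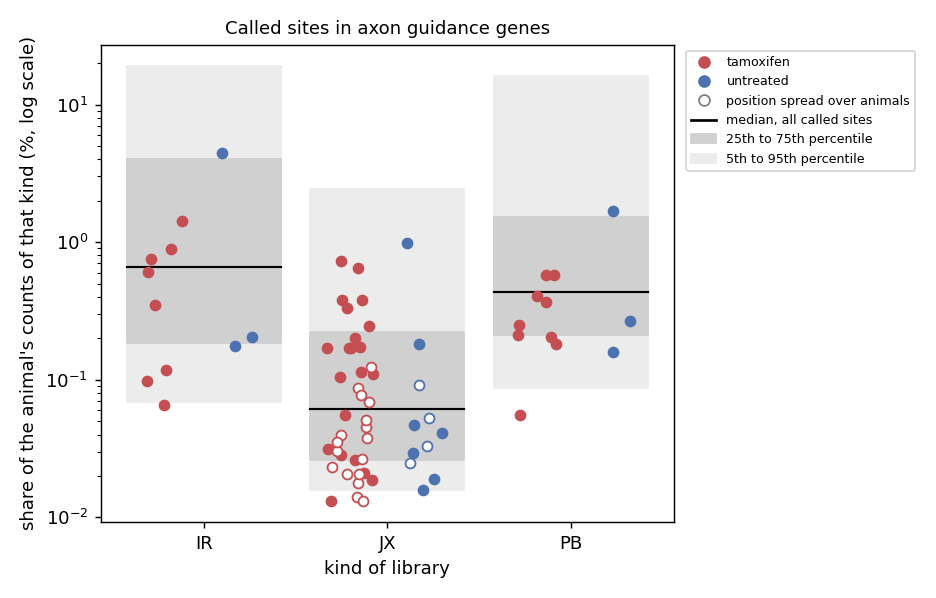
Share of the animal's counts of that kind (percent, log scale) at each called site in or next to an axon guidance gene, in IR, JX and PB libraries, red with tamoxifen and blue without, with open circles at positions spread over animals. The black line is the median of all called sites and the grey bands are their 25th to 75th and 5th to 95th percentiles; the highest point in each kind is the Plxna4 locus of 1 untreated animal.

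A site was held to recur in another kind of library where the same animal had any count of that kind near it. Of 11 IR sites, 8 (72.7%) had a JX count within 100 bp, against 82.3% of all called IR sites. Of 49 JX sites, 31 (63.3%) had an IR count within 100 bp, against 65.8%. Of 12 PB sites, 9 (75%) had an IR count within 1000 bp, against 74.1%. These shares were near those of all called sites.

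A large part of the JX sites stood at positions that many animals share. Of the 49 JX sites, 21 (42.9%) were spread over animals, against 46.0% of all called JX sites, while 0 of the 11 IR sites and 0 of the 12 PB sites were. The spread sites were listed in a median of 57 of the 119 animals, and 20 of 21 (95.2%) were also listed in a control DNA, against 94.4% of all spread JX sites. The other 28 JX sites were listed in a median of 2 animals, and 2 of them (7.14%) in a control DNA, against 7.34% overall. With spread positions left out, 19 genes (27.5%) remained hit in JX, against 9.62% of all symbols, while 7 genes in IR (background 6.34%) and 11 genes in PB (background 7.82%) were hit, as many as before.

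**Figure D5:**
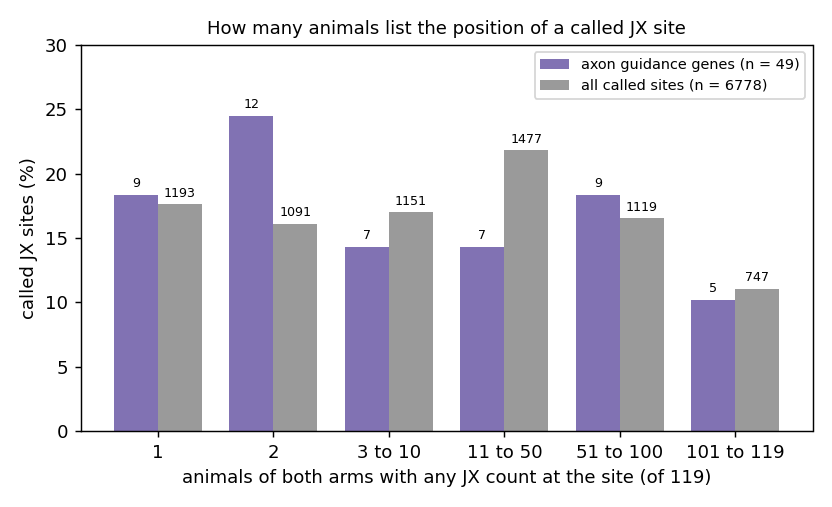
Called JX sites (percent of sites, with the number of sites above each bar) by the number of the 119 animals that list any JX count there, for the 49 sites in or next to axon guidance genes and for all 6778. The shares of both run alike from 1 animal to over 100, with 5 of the 49 sites listed in over 100 animals.

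The position in intron 14 of Dcc at 71596974 was the one called in the most animals. It was listed in JX in 66 of 72 animals with tamoxifen (91.7%, median 72 counts) and in 44 of 47 without (93.6%, median 61.5 counts). It reached the call in 18 animals with tamoxifen and 13 without, and 5 control DNAs had 61 to 174 JX counts there. The position in intron 25 of Dcc at 71469653 was called in 12 and 7 animals, and in a control DNA it reached 271 counts. In intron 1 of Unc5c at 141184546 on chromosome 3, 67 and all 47 animals listed JX counts, and 17 and 9 reached the call. The groups overlapped at each of these positions.

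With each position credited to 1 animal, JX sites in or next to axon guidance genes were held by few animals. On that count, these JX sites fell in 20 of 72 animals with tamoxifen (27.8%) and 5 of 47 without (10.6%). In IR the animals were 6 and 3, and in PB 9 and 3. Without crediting, Dcc alone was hit in JX in 22 animals with tamoxifen (30.6%) and 13 without (27.7%), so the credited numbers are no comparison of the groups. In JX, 38 of the 49 sites (77.6%) were in tamoxifen animals, against 64.7% of all called JX sites, 8 of 11 in IR (72.7%, against 66.6%) and 9 of 12 in PB (75%, against 68.9%). One untreated animal held 6 of the 11 untreated JX sites (in Epha5, Nrp1, Sema3a, Sema3e and Sema5b), out of 336 called JX sites in all. Without it 5 genes were hit in JX in the untreated group in place of 10. In the tamoxifen group the highest were an animal with 5 JX sites, 4 of them spread, and the animal with the most called JX sites (689), which had 4.

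Only 5 of the 69 genes lie on a donor chromosome: Efna2, Ntn4, Plxnc1 and Unc5b on chromosome 10 and Sema4b on chromosome 7. Plxnc1 had 32959 IR counts in the 90 animals with chromosome 10 as donor and 1517 in the 29 with chromosome 7, and its 3 IR sites were all in the former. Ntn4 had 9047 and 178 IR counts and no called site. Sema4b and Efna2 had no called site in either group. Without the donor chromosome of each animal Plxnc1 had no called IR site.

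Of 70 other genes of axon guidance signalling, a list of further ligands, receptors and signal transducers of the pathway, 68 were in the table. The IR libraries hit 7 of these (10.3%, against 6.35% of all symbols), the JX libraries 27 (39.7%, against 16.4%) and the PB libraries 18 (26.5%, against 7.83%). Only 1 gene in IR and 3 in JX were hit in at least 3 animals and tested, and 0 passed in either direction, also at an unadjusted p of 0.05. Dock1, an activator of Rac, was hit in IR in 2 animals with tamoxifen and 1 without and in JX in 4 and 2. Dab1, an adaptor of reelin signalling, was hit in JX in 3 and 2, and Pak3, a kinase downstream of Rac, in 2 and 2, with 3 spread sites in each.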

How the data were processed

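Insertions were counted in tumour DNA of 119 animals in 9 sequencing lanes, and control tumours, control DNAs and animals of no usable group were only described. The values are raw counts per position and library, deposited by the authors without scaling. Positions refer to mm9, as the submitters' processing notes name it. No aligner, read filter or annotation is named in the sources used here. Counts carry no molecular identifiers, so they are not independent molecules and no counting interval is given.

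Counts were summed per animal and kind of library over the left and right end and over lanes (7 animals were run in 2), positions within 10 bp were merged, and sites were called, credited and assigned to the gene and gene part that the table lists, with Python 3.11.15, pandas 2.3.3 and scipy 1.17.1. The tests were checked on simulated data with planted differences far larger than those of the axon guidance genes, and without crediting. That check does not show whether differences as small as those found here would be seen. Nothing in the labels says that animals were litter mates or separate cohorts. The p-values compare numbers of animals hit and measure no spread between animals. Crediting a position to 1 animal also makes the calls of the animals depend on each other. The genes named with full values were those hit in at least 3 animals, the leading gene of each family, the highest site of each kind of library and the genes on chromosomes 7 and 10. The 69 genes, the list of 70 further genes and the rules were chosen with earlier results of these data known. Alternatives changed the call thresholds, merging, crediting, spread positions, gene bodies, donor chromosome, lanes and single animals. Orientation labels were not used.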

Additional observations from a re-analysis of the deposited data

Results flagged for a closer look

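Among samples outside the comparison, called sites in axon guidance genes were uneven. Without crediting, 7 control DNAs with JX libraries held 46 JX sites in these genes, of 7335 called in all, and 0 IR or PB sites. In the 5 control tumours, 1 tumour held both called IR sites (2, of 631 called in all 5) and all 7 JX sites (of 1227). The other 4 held 0, a pattern that Dixon's rule flagged. The sites of that 1 tumour lay at positions that 50 or more of the 119 compared animals also list. Its IR shares there were 0.0845% (Dcc) and 0.0655% (Unc5c). The highest compared animal had 0.0066% and 0.0053% at these positions, and the highest control DNA had 0.0176% at each. In JX the tumour's share was above that of every compared animal at the Epha4 and Unc5b positions only. Of the 8 animals with no usable group, 1 held 3 IR sites (of 533 called in all 8) and the others 0. Where all other samples hold 0, Dixon's rule flags any single nonzero count, whatever its size. These flags therefore give no measure of how unusual the samples are.

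Of the 20 sites in animals with no usable group, those named here took a larger share than any control DNA or control tumour had at the position. In IR these were Unc5b (0.0512% of the sample's counts), Sema5a (0.0262%) and Slit1 (0.485%), none of them listed in a compared animal or a control DNA. In JX these were Nrp2 in 2 animals (0.0740% and 0.0519%), Epha6 (0.0248%), Unc5cl (0.0355%), Unc5c (0.0679%) and Epha5 at different positions (0.0175% and 0.0262%), and each of these positions was also listed in compared animals and control DNAs. In PB they were Epha5 in intron 3 (0.585%) and Sema4b on chromosome 7 in intron 2 (1.34%). Neither PB position was listed in a control DNA.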

How the results depend on the processing

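No axon guidance gene passed an adjusted p of 0.05 under any alternative run, of any kind of library (0 in each). The number of genes with a called site moved with the call. With a share of the highest site of at least 0.1% it rose to 41 (IR, 59.4% against 35.0% of all symbols), 48 (JX, 69.6% against 46.1%) and 45 (PB, 65.2% against 40.5%). With 5% it was 4 (5.80% against 3.21%), 6 (8.70% against 5.29%) and 2 (2.90% against 2.50%). In JX it was 19 with spread positions removed, with or without crediting (27.5% against 9.62%), and 19 with sites inside gene bodies only (against 9.39%). In PB it was 7 inside gene bodies (10.1% against 4.97%). Leaving out each lane gave 6 to 7 genes (IR), 25 to 29 (JX) and 7 to 11 (PB), the lowest PB count without lane 1 (10.1% against 6.86%).

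Differences in the percent of animals hit (tamoxifen minus untreated), small from the start, changed sign in several cases. Plxnc1 in IR went from 0.650 to -0.739 inside gene bodies and -0.719 without the animal with the most called sites, and ranged from -0.913 to 3.33 when each lane was left out. Dcc in JX went from 5.56 to -0.739 at 5%. Epha5 in JX went from 2.04 to -2.22 at 0.1% and -2.13 at 5%. Sema3a in JX went from 0.650 to -0.739 with at least 50 counts, with positions merged within 100 bp and with spread positions removed, with or without crediting, and to -0.719 without the animal with the most called sites; it ranged from -0.818 to 3.17 over the lanes left out. Unc5d in JX went from 3.43 to -0.827 without crediting, and ranged from -0.238 to 5.88 over the lanes left out. Each such change rests on few animals hit. For Dcc at 5% the animals hit went from 4 with tamoxifen and 0 without to 1 and 1. Leaving out a lane also changes the number of animals in each group. The lowest p of any axon guidance gene under an alternative was that of Unc5d in JX at 0.1% (7 animals against 0, Fisher's exact test p = 0.0412, adjusted p = 1).

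The planned stratification by the lane with most counts was not run as written, because the deposited counts join repeat lanes. An exact test stratified by lane, with animals of 2 lanes in the lower one, was added after seeing the data, as were the removal of spread positions without crediting and the omission of the animal with the most sites in these genes. The lane-stratified exact test moved Dcc in JX from p = 0.152 to p = 0.0538 (adjusted p = 1 in both). No paired analysis was possible because no animal has a numbered partner in the other group. The replicate numbers are lanes, each holding many animals, so the test by lane is a stratified one and pairs no animals. In PB the shallowest animal had 1714 counts.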
